A study of Homo sapiens with 9 samples.

Results

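The 10 genes described here write, copy, read or remove 5-methylcytosine. They are the DNA methyltransferases DNMT1, DNMT3A, DNMT3B and DNMT3L, the RING finger proteins UHRF1 and UHRF2, the dioxygenases TET1, TET2 and TET3, and the thymine DNA glycosylase TDG. They were found by symbol in the normalized table of 63856 genes, each in 1 row, and their counts were taken from the same row of the count table.

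RNA was sequenced from TCam-2, a line derived from 1 human seminoma, in 9 samples, 3 in each of 3 groups described as biological replicates. WT cells were unmodified. The negative control (NC) was transfected with the px335_G2P vector, which also encodes GFP, carrying nonspecific gRNAs. The ESX1 group received the same vector with gRNAs for the ESX1 promoter together with PB-TRE-dCas9-VPR, a doxycycline-inducible activator (CRISPRa). Transfected cells were kept in puromycin and doxycycline before collection. ESX1 is an X-linked homeobox gene. NC and WT therefore differ in transfection, vector and selection at once, and these cannot be told apart. The methods do not state whether NC also received dCas9-VPR, so guide sequence and activator may both differ between ESX1 and NC. No sort for GFP is described, and the paper reports GFP signal in only part of the cells of both transfected groups after selection. Each transfected sample may therefore mix cells with and without the constructs.

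In mammals, DNMT3A and DNMT3B place new methyl groups on cytosine in CpG dinucleotides, and DNMT3L, which has no catalytic activity of its own, stimulates them. UHRF1 binds hemimethylated CpG behind the replication fork and brings in DNMT1, which copies the mark to the new strand. TET enzymes oxidize 5-methylcytosine, and TDG excises the oxidized bases for repair. Primordial germ cells and seminomas, which resemble them, are known for low DNA methylation, and TET1 is a gene of the pluripotent and early germ cell state.

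Total counts per sample ranged from 5212804 in ESX1 replicate 3 to 10644408 in WT replicate 3. Mitochondrial genes took 17.02% to 18.33% of the counts in WT, 14.45% to 15.25% in NC and 19.2% to 19.87% in ESX1, so this share separated the groups without overlap. All 11 of 11 seminoma and primordial germ cell markers, among them POU5F1, NANOG, SOX17 and TFAP2C, had at least 10 counts in every sample. Their summed RPKM (normalized CPM per kilobase of gene length, where CPM is the count scaled to a common library size) was 1230 to 1470 in WT, 944 to 1020 in NC and 553 to 680 in ESX1. Markers of other cells had lower sums, with 1.19 to 5.38 for 4 embryonal carcinoma genes and 5.01 to 11.6 for 4 Sertoli genes. The sums were 0.31 to 1.19 for 3 Leydig genes and 0.108 to 1.04 for 4 leukocyte genes. For 6 fibroblast genes the sum was 10 to 30.3, with COL1A2 alone at 8.41 to 29.9 RPKM (508 to 3195 counts). INSL3 and CD3E had 0 counts throughout. The targeted gene ESX1 had 28 to 33 counts in WT, 27 to 35 in NC and 170 to 562 in ESX1, a log2 fold change of 3.85 against NC (SE 0.243, adjusted p = 4.48e-08). After scaling, ESX1 replicates 1 to 3 had 57.0, 55.7 and 31.4 CPM of this gene, so replicate 3 was lowest beyond its smaller library.

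Promoter sequences are shown for UHRF1, the only member that differed from NC by the test used, and for UHRF2 and TET1, which fell furthest against WT after DNMT3L. They are RefSeq windows on GRCh38, cut where an exon begins, and written 5′ to 3′. RefSeq windows were found for 9 of the 10 genes, all but DNMT3L. UHRF1 and TET1 have further windows at other starts, which are not shown. The UHRF1 window shown lies inside the annotated span of the gene, which starts at 4903080. The TET1 window shown ends at 68560336, ahead of the annotated start of the counted gene at 68560656. Capitals mark an 8-base word of the kind that E2F factors, regulators of S phase genes, bind (the words searched on both strands were TTTCCCGC, TTTCGCGC, TTTGCCGC and TTTGGCGC).
UHRF1, chr19:4909894-4910143, plus strand: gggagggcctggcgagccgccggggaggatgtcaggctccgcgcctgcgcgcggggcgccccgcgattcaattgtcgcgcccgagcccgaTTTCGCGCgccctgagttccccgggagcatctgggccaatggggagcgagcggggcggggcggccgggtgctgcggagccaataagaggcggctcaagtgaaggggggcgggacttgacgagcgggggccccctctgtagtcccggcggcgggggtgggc
UHRF2, chr9:6412949-6413150, plus strand: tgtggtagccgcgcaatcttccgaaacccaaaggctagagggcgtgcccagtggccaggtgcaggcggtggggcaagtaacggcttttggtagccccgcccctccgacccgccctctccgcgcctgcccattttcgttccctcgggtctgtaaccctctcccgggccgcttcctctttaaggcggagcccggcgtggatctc
TET1, chr10:68560087-68560336, plus strand: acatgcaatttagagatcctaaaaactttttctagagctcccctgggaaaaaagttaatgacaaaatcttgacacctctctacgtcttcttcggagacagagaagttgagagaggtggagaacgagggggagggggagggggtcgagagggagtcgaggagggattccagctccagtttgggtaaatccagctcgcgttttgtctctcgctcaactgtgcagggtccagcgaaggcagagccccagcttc

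The UHRF1 window shown held 32 CpG dinucleotides and 75.2% G or C. Windows at other UHRF1 starts held 28 and 41 CpG, and the one with 41 had 0 E2F-type words. The TET1 window shown held 9 CpG and 51.6% G or C, and the whole UHRF2 window 23 CpG and 66.0%. Windows at other TET1 starts held 4 and 11 CpG. Words, CpG and G or C were counted over the full 250 bases before each start, and some windows reach into exons of their gene. An E2F-type word was found in 2 of the 20 windows of the members (10%), both of UHRF1, and in 2.8% of 35116 windows of all genes. For the UHRF1 window with 28 CpG, the word lay in its last 71 bases, which are annotated as exon of UHRF1. The GC box GGGCGG, searched the same way, was in 11 of 20 windows (55.0%, against 42.6% of all windows), and CCAAT was in 7 (35.0%, against 32.0%). The median window of the members held 22 CpG, against 11 over all windows. The windows overlap in part and were not compared by a test, and a match is a run of letters, not a measured binding site.

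Per kilobase, TET1 was the highest of the 10 genes in every group. Its RPKM was 73.7 to 93.7 in WT, 50.9 to 55.4 in NC and 40.1 to 47.9 in ESX1, and none of these ranges overlapped that of another member in the same group. Among the 18452 genes tested, the TET1 mean lay at the percentile 98.1 in WT and 96.9 in ESX1. DNMT3L was the lowest, with 1.73 to 3.77 RPKM in WT, 0.657 to 0.836 in NC and 0.398 to 0.982 in ESX1. Between these 2 genes, the WT means ran in the order UHRF2 23.3, DNMT1 18.0, DNMT3B 16.2, TDG 15.6, TET3 11.9, DNMT3A 10.01, TET2 7.96 and UHRF1 7.04 RPKM. Among those 8 genes neighbours overlapped between samples, except TDG (14.2 to 17.5) with TET3 (10.9 to 12.7) and TET3 with DNMT3A (9.28 to 10.8). In NC the order was DNMT1 17.7, UHRF2 13.8, TDG 13.2, DNMT3B 12.8, TET3 12.4, TET2 9.16, DNMT3A 7.60 and UHRF1 6.78 RPKM, with gaps between DNMT1 and UHRF2 and between TET3 and TET2. In ESX1 the order changed to TDG 14.7, DNMT1 14.5, TET3 14.0, DNMT3B 11.4, UHRF2 11.4, TET2 7.40, DNMT3A 6.93 and UHRF1 4.37 RPKM. The sample ranges were apart between UHRF2 (9.14 to 12.9) and TET2 (6.83 to 8.42). There UHRF1, at 4.09 to 4.85 RPKM, lay below the range of DNMT3A (6.03 to 7.85), its neighbour in the order. In NC the 2 overlapped, with UHRF1 at 6.04 to 7.47 and DNMT3A at 6.82 to 8.52 RPKM.

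**Figure D1:**
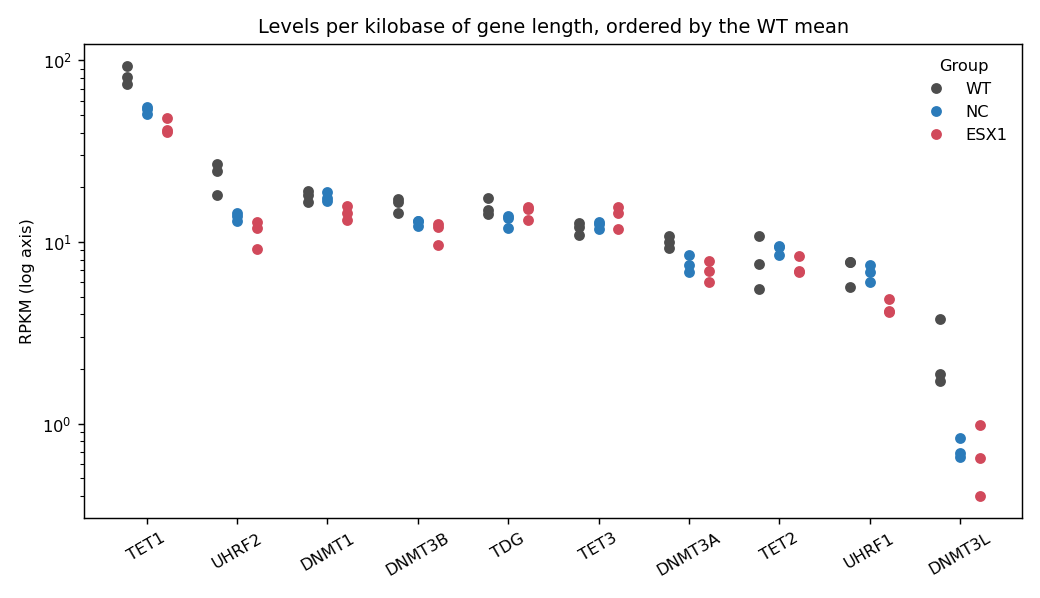
RPKM of the 10 genes in each sample on a log axis, ordered by the WT mean, with 1 point per sample and a colour per group. TET1 lies above every other member in all groups, and DNMT3L lies below them.

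The comparison of ESX1 with NC asks what followed activation among transfected cells. UHRF1, the gene that guides methylation maintenance, was lower in ESX1 and was the only member called, as 1 of 10 members (0 higher, 1 lower), where 4.25% of all tested genes were called with 1.88% higher and 2.37% lower. Calls are at an adjusted p below 0.05, from a quasi-likelihood fit in edgeR with the Benjamini-Hochberg adjustment taken over the 18452 tested genes, and all 10 members passed the filter on low counts. In these bulk samples, fewer cells with a transcript and less of it per cell cannot be told apart. The median log2 fold change of the members was -0.22, against 0 for all tested genes. Before adjustment 3 members had a p below 0.05 in edgeR, namely UHRF1 (0.00112), TET1 (0.0117) and DNMT1 (0.0189). With a 2-fold change required as well, 0 members were called, where 1.78% of all genes were.

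UHRF1 (ENSG00000276043.4, chromosome 19 of GRCh38, 4903080 to 4962154, plus strand) stood at 28.9, 39.8 and 39.9 normalized CPM in WT replicates 1 to 3, at 38.5, 31.1 and 35.1 in NC and at 24.9, 21.4 and 21.1 in ESX1. All ESX1 samples were below all control samples, and WT and NC overlapped. The counts behind these values were 265 to 382 in WT, 290 to 371 in NC and 114 to 246 in ESX1. On the deposited log2 scale the same row read 8.20, 8.61 and 8.61 in WT, 8.56, 8.30 and 8.46 in NC and 8.03, 7.84 and 7.79 in ESX1. The group means were 36.2 ± 6.3 CPM (SD, n = 3) in WT, 34.9 ± 3.69 in NC and 22.5 ± 2.14 in ESX1. Against NC, UHRF1 fell by 0.63 on the log2 scale (SE 0.161, 95% interval -0.97 to -0.29, edgeR adjusted p = 0.0338), and against WT by 0.68 (SE 0.162, adjusted p = 0.00433). Between NC and WT the log2 fold change was -0.05, with an interval of -0.38 to 0.28 (edgeR adjusted p = 0.854). The call against NC did not hold without NC replicate 1 (adjusted p = 0.158), NC replicate 2 (0.0571), NC replicate 3 (0.134), ESX1 replicate 2 (0.0761) or ESX1 replicate 3 (0.131), and its log2 fold change then ran from -0.71 to -0.55. The mitochondrial share was also higher in ESX1 than in NC, and without mitochondrial and small structural RNA genes the value against NC was -0.63 (adjusted p = 0.032). Leaving these genes out bears on the scaling of the libraries, and whatever else goes with the share was not tested.

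DNMT1 (ENSG00000130816.14, chromosome 19, 10133345 to 10231286, minus strand), the maintenance methyltransferase itself, had 164, 178 and 187 CPM in WT, 185, 165 and 170.4 in NC and 155, 142 and 129 in ESX1. The 3 ESX1 samples again lay below the 6 controls. The log2 fold change was -0.29 against NC (SE 0.111, 95% interval -0.52 to -0.05, edgeR adjusted p = 0.186), which did not pass after adjustment. Against WT DNMT1 fell by 0.31 (SE 0.111, adjusted p = 0.0441), a call that was lost in 14 of 19 alternative analyses, with adjusted p from 0.0268 to 0.198, among them the one without mitochondrial and small structural RNA genes (0.0511). Between NC and WT the value was -0.02 (interval -0.26 to 0.21), and it took the opposite sign, 0.07, with upper-quartile scaling. DNMT1 shares 0.7% of its exon bases with S1PR2 on the same strand, which had 15 to 49 counts.

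UHRF2 (ENSG00000147854.16, chromosome 9, 6413151 to 6507054, plus strand), a paralog of UHRF1 that also binds modified CpG, had a different order of groups. Its values were 179.6, 245 and 267 CPM in WT, 129, 143 and 137 in NC and 90.6, 119 and 128 in ESX1. Every WT sample was above every NC sample, and every NC sample was above every ESX1 sample, by a margin of under 1 CPM in the last case. UHRF2 fell by 0.76 in NC against WT (SE 0.149, edgeR adjusted p = 0.00223) and by 1.04 in ESX1 against WT (SE 0.151, adjusted p = 7.34e-05). Against NC the log2 fold change was -0.28, with an interval of -0.60 to 0.04 (edgeR adjusted p = 0.394). A pseudogene by its symbol, UHRF2P1 on chromosome X, had 22 to 64 counts, or 2.75% of those of UHRF2. Reads that match both may be lost or assigned to either.

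**Figure D2:**
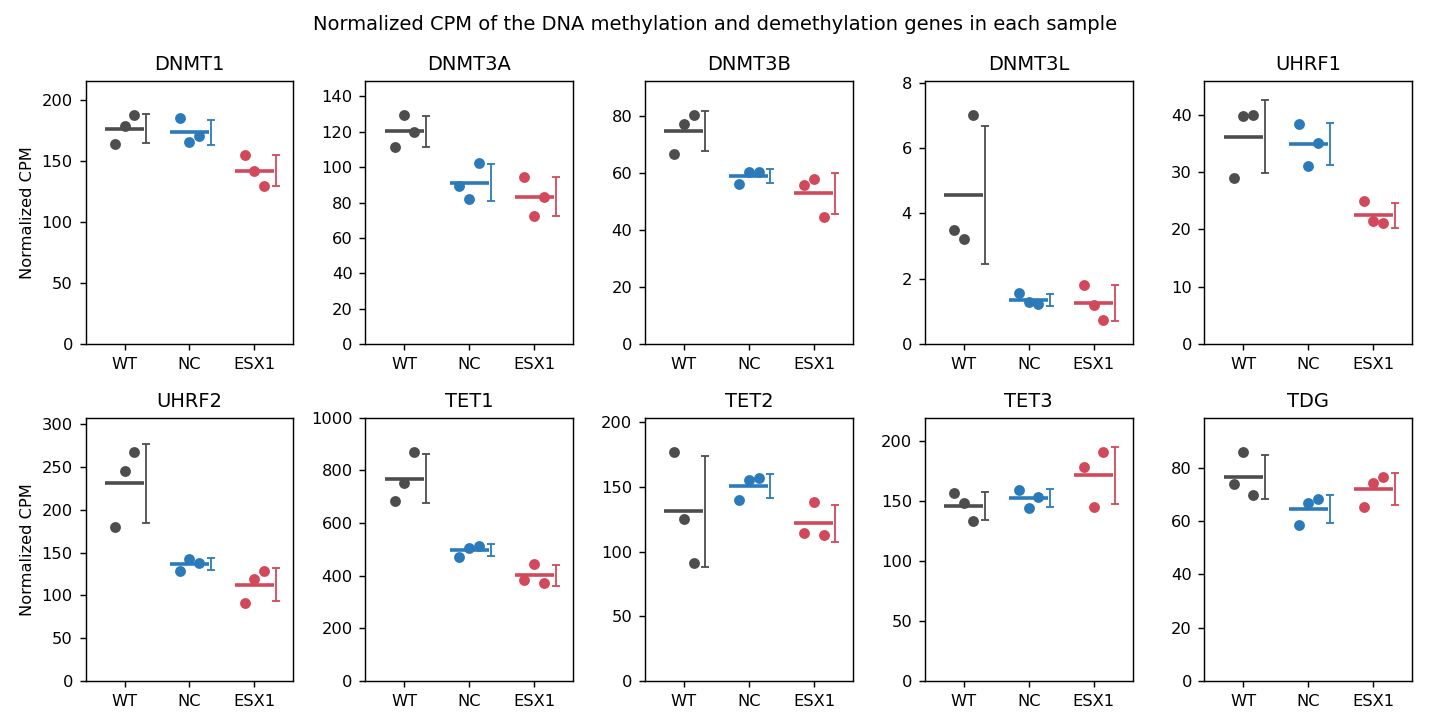
Normalized CPM (CPM, counts scaled to a common library size with TMM factors) of each gene in the 9 samples, with points for samples, thick lines for group means and bars for ± 1 SD (n = 3), on axes that start at 0. The ESX1 points of UHRF1 and DNMT1 lie below all control points, while UHRF2 and TET1 are highest in WT.

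The de novo methyltransferases DNMT3A and DNMT3B were called lower in ESX1 against WT, and in NC against WT only DNMT3A passed. ESX1 and NC overlapped for both. DNMT3A (ENSG00000119772.16, chromosome 2, 25227855 to 25342590, minus strand) had 112, 129 and 120.1 CPM in WT, 89.6, 82.0 and 102 in NC and 94.4, 72.5 and 83.1 in ESX1. All 6 transfected samples were below the 3 WT samples. DNMT3A fell by 0.40 in NC against WT (SE 0.124, edgeR adjusted p = 0.0358) and by 0.53 in ESX1 against WT (SE 0.125, adjusted p = 0.0042). The NC call was lost in 8 of 19 alternatives, where adjusted p ran from 0.0218 to 0.188, including those without WT replicate 2 (0.156), WT replicate 3 (0.0763), NC replicate 1 (0.127), NC replicate 2 (0.188) or ESX1 replicate 3 (0.0541). Against NC the log2 fold change of ESX1 was -0.13 (interval -0.40 to 0.13).

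DNMT3B (ENSG00000088305.18, chromosome 20, 32762385 to 32809356, plus strand) stood at 66.9, 77.2 and 80.3 CPM in WT, 56.4, 60.4 and 60.6 in NC and 56.0, 58.2 and 44.7 in ESX1. WT was again above both other groups in every sample. DNMT3B fell by 0.49 in ESX1 against WT (SE 0.126, edgeR adjusted p = 0.00712), a call that was lost without ESX1 replicate 3 (-0.36, adjusted p = 0.058). In NC against WT the value was -0.34 (interval -0.60 to -0.08, edgeR adjusted p = 0.0705), which passed only when WT replicate 1 was left out (adjusted p = 0.0376). Against NC it was -0.15 (interval -0.42 to 0.11).

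DNMT3L (ENSG00000142182.8, chromosome 21, 44246339 to 44262216, minus strand), the germline cofactor of DNMT3A, was the rarest member. It had 32, 22 and 67 counts in WT, 15, 12 and 12 in NC and 18, 12 and 4 in ESX1, or 3.49, 3.21 and 7.0 CPM, 1.56, 1.29 and 1.22 CPM, and 1.83, 1.21 and 0.739 CPM. WT replicate 3 had about as much as the other WT samples together, and the transfected samples were all below WT. DNMT3L fell by 1.76 on the log2 scale in NC against WT (SE 0.418, edgeR adjusted p = 0.00809) and by 1.80 in ESX1 against WT (SE 0.427, adjusted p = 0.00429). Without WT replicate 3 the NC value was -1.30 and no longer passed (adjusted p = 0.0786). ESX1 and NC were not distinguishable at this depth (-0.05, interval -1.03 to 0.94). Of its exon bases, 12.96% lie in AP001059.5 on the other strand, which had 0 counts. Counting did not use the strand, so reads there may be missing from the DNMT3L count, and the 0 cannot tell.

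Of the TET enzymes, TET1 fell from WT to both other groups, and TET2 and TET3 were not called in any comparison. TET1 (ENSG00000138336.8, chromosome 10, 68560656 to 68694482, plus strand) had 684, 753 and 870.0 CPM in WT, 473, 504 and 515 in NC and 385, 445 and 372 in ESX1. The groups did not overlap. TET1 fell by 0.63 in NC against WT (SE 0.11, edgeR adjusted p = 0.000918) and by 0.94 in ESX1 against WT (SE 0.111, adjusted p = 8.7e-06), from a mean of 769 ± 93.9 to 401 ± 38.9 CPM (SD, n = 3). Against NC the log2 fold change was -0.31 (SE 0.11, 95% interval -0.54 to -0.08, edgeR adjusted p = 0.141), which did not pass after adjustment under any of 19 alternatives (0.06 to 0.427).

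TET2 (ENSG00000168769.13, chromosome 4, 105145875 to 105279816, plus strand) had 177, 125 and 91.3 CPM in WT, 140.1, 156 and 157 in NC and 115, 139 and 113 in ESX1. WT replicate 1 was above all other samples and WT replicate 3 below them, so that WT spanned both other groups. ESX1 was below NC without overlap, at a log2 fold change of -0.31 (interval -0.67 to 0.06, edgeR adjusted p = 0.424). The SE of 0.174 behind it also carries the WT spread, and with only the 6 samples compared it was 0.116 (edgeR adjusted p = 0.16). Against WT the value was -0.10 in ESX1 and 0.20 in NC. Without WT replicate 1 these were 0.17 and 0.48, and the second then passed (edgeR adjusted p = 0.0305). The antisense gene TET2-AS1 had 14 to 32 counts, and counting did not use the strand.

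TET3 (ENSG00000187605.15, chromosome 2, 73986404 to 74108176, plus strand) had 156, 148 and 133 CPM in WT, 159, 144 and 153 in NC and 178, 145 and 191 in ESX1. ESX1 replicates 1 and 3 were above all controls, and replicate 2 was among them. The log2 fold change was 0.17 against NC (interval -0.08 to 0.42) and 0.23 against WT (interval -0.02 to 0.48, edgeR adjusted p = 0.165). Without ESX1 replicate 2 the value against WT was 0.33 and passed (adjusted p = 0.0406).

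TDG (ENSG00000139372.14, chromosome 12, 103965804 to 103988874, plus strand) stood at 74.0, 86.0 and 69.8 CPM in WT, 58.5, 66.8 and 68.4 in NC and 65.2, 74.4 and 76.7 in ESX1. NC lay just below WT, and ESX1 overlapped both. None of its comparisons passed, with log2 fold changes of 0.16 for ESX1 against NC (interval -0.10 to 0.41), -0.09 for ESX1 against WT (interval -0.34 to 0.17) and -0.25 for NC against WT (interval -0.50 to 0.01). The pseudogene TDGP1 had 3 to 26 counts, or 1.98% of those of TDG.

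Counted over the 10 genes, 7 were called lower and 0 higher in ESX1 against WT, where 28.8% of all tested genes were called and 15.8% were called lower. The 7 were DNMT1, DNMT3A, DNMT3B, DNMT3L, UHRF1, UHRF2 and TET1, and of them DNMT3L and UHRF2 passed a 2-fold change as well (11.5% of all genes). UHRF2 was under 2-fold with upper-quartile scaling (-0.93), thinned libraries (-0.98), at least 10 counts in every sample (-0.99) or limma on the deposited log2 values (-0.99), and without WT replicate 3 (-0.92) or ESX1 replicate 1 (-0.90). DNMT3L was under 2-fold in limma on the deposited values (-0.86). In NC against WT, 4 were called lower and 0 higher (17.1% of all genes called, 10.3% lower), namely DNMT3A, DNMT3L, UHRF2 and TET1, with DNMT3L alone past 2-fold (5.27% of all genes), though not in limma on the deposited values (-0.81). The members' median was -0.51 in ESX1 against WT and -0.29 in NC against WT, each beside 0.01 for all tested genes. Both comparisons use the same WT samples, and both contrasts of ESX1 use the same ESX1 samples. Upper-quartile scaling moved the median of all genes to 0.11 in ESX1 against WT and 0.10 in NC against WT, and the share of calls that were lower from 55.1% to 42.5% and from 60.1% to 44.9%. With it 6 and 3 members were called, all lower.

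Groups that did not overlap were seen for 5 members in ESX1 against NC (DNMT1, UHRF1, UHRF2, TET1 and TET2, all lower), where 22.6% of all genes did not overlap and 11.8% were lower. The same held for 7 members in ESX1 against WT (40.3% of all genes, 21.3% lower) and for 6 in NC against WT (37.6%, 20.0% lower), again all lower.

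**Figure D3:**
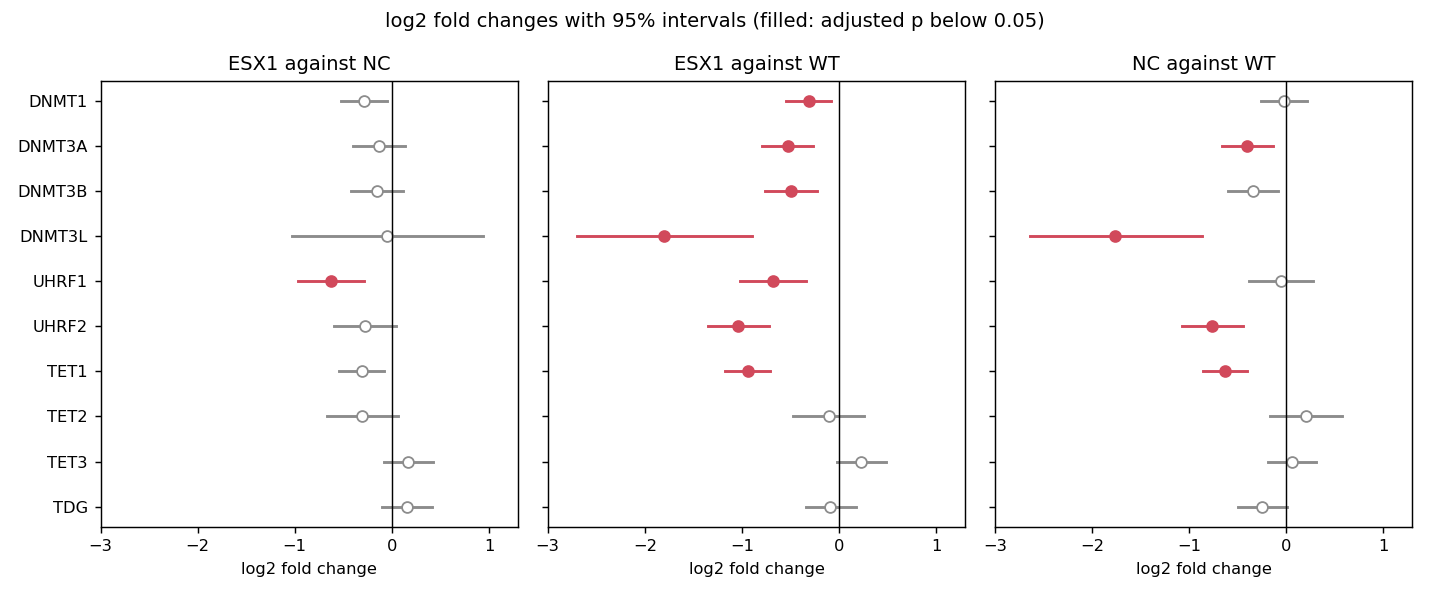
log2 fold change of each gene with its 95% interval in the 3 comparisons, with filled points where the edgeR adjusted p is below 0.05. Only UHRF1 is filled for ESX1 against NC, 7 genes are filled for ESX1 against WT and 4 for NC against WT, all to the left of 0.

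The share of each gene in its family is given as a description. TET1 gave 75.8% to 85.1% of the summed RPKM of the 3 TET genes in WT, 70.4% to 71.9% in NC and 64.2% to 70.3% in ESX1, and the sum itself was 97.2 to 110.1, 72.4 to 77.4 and 62.5 to 68.2 RPKM. TET3 gave 9.9% to 13.1%, 15.6% to 17.9% and 17.3% to 24.9%. DNMT1 gave 38.1% to 39.5% of the summed RPKM of the DNMT genes in WT, 43.9% to 48.0% in NC and 43.0% to 43.8% in ESX1. UHRF1 gave 22.3% to 23.8% of the UHRF1 and UHRF2 sum in WT, 29.5% to 36.5% in NC and 24.1% to 34.7% in ESX1. The UHRF1 share overlapped between ESX1 and NC, and the DNMT3A share overlapped between all groups. The shares were not tested, and a share rises when another member falls.

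**Figure D4:**
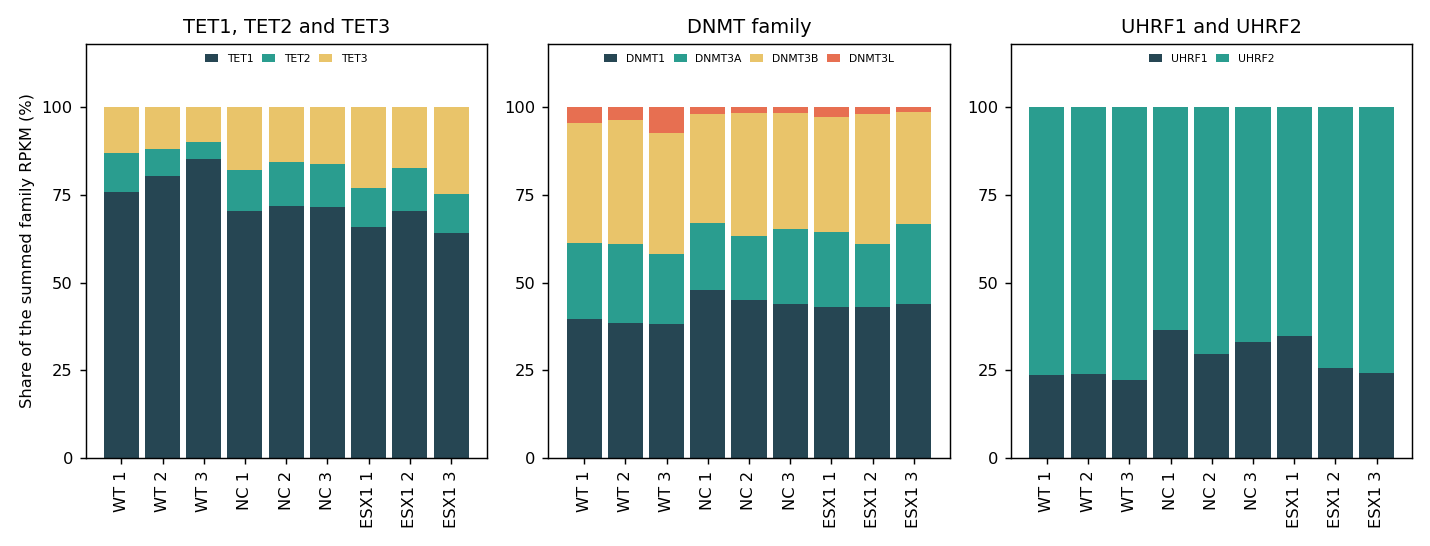
Share of each gene in the summed RPKM of its family, as a stacked bar per sample that adds to 100%. The TET1 share is 75.8% or more in WT and 71.9% or less in the transfected samples.

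Genes that work with the members were taken from 7 lists. Their counts stand beside the shares of all tested genes called, which in ESX1 against NC were 1.88% higher and 2.37% lower. These shares were 12.9% and 15.8% in ESX1 against WT, and 6.82% and 10.3% in NC against WT. Of 11 tested maintenance and targeting partners (13 listed, with DPPA3 and ZFP57 too low to test), 0 rose and 2 fell in ESX1 against NC, with a list median of -0.22. These were HELLS, a remodeller needed for DNA methylation, at -0.66 (edgeR adjusted p = 0.007), and CDCA7, its partner, at -0.67 (adjusted p = 0.0158). HELLS had 456 ± 23.7, 279 ± 21.2 and 176 ± 36.8 CPM (SD, n = 3) in WT, NC and ESX1, and CDCA7 55.4 ± 2.48, 34.6 ± 3.60 and 21.5 ± 4.08. Both had also fallen in NC against WT, by 0.71 and 0.68. In ESX1 against WT 1 partner rose and 4 fell (median -0.28), and in NC against WT 1 rose and 3 fell (median -0.06).

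S phase genes are given beside them. Of 16 tested, 0 rose and 1 fell in ESX1 against NC (median -0.20), namely the proliferation marker MKI67 at -0.47 (edgeR adjusted p = 0.00792). Against WT, 15 of 16 fell in ESX1 (median -0.73) and 12 of 16 in NC (median -0.50), among them the replication licensing gene MCM5 (-0.87 and -0.50). UHRF1 and DNMT1 are themselves most expressed in dividing cells, and the part of cell cycle in their values was not tested.

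Of 10 TET cofactors and regulators, 0 rose and 1 fell in ESX1 against NC (median -0.12). This was PRDM14, a germ cell regulator, at -1.16 (edgeR adjusted p = 0.0164), with 63.7 ± 20.9 CPM in WT, 13.1 ± 1.48 in NC and 6.08 ± 1.96 in ESX1 (SD, n = 3). Against WT, 1 rose and 5 fell in ESX1 (median -0.59), and 1 rose and 4 fell in NC (median -0.68). IDH1, which makes the 2-oxoglutarate that TET enzymes consume, was at -1.31 and -1.18, and OGT, a partner of TET proteins, at -0.87 and -0.76 in these 2 comparisons. The summed seminoma markers given above ran in the same order of groups as TET1, and their part in its value was not tested.

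Of 12 tested repair and demethylation partners (14 listed), 2 rose and 0 fell in ESX1 against NC (median -0.06). Both are stress-inducible GADD45 genes. GADD45B was at 1.26 (edgeR adjusted p = 0.00154), with 13.9 ± 2.56, 14.4 ± 1.41 and 34.2 ± 10.1 CPM in WT, NC and ESX1 (SD, n = 3). GADD45A was at 0.84 (adjusted p = 0.0463), with 4.91 ± 1.42, 20.3 ± 0.97 and 36.4 ± 12.6 CPM. In ESX1 against WT 3 rose and 4 fell (median 0.10), and in NC against WT 2 rose and 2 fell (median 0.05).

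The remaining lists had at most 1 call each in ESX1 against NC. Of 15 tested genes of S-adenosylmethionine and one-carbon metabolism (17 listed), 0 rose and 1 fell (median -0.10), namely SHMT1 at -0.68 (edgeR adjusted p = 0.0368). Against WT 2 rose and 4 fell in ESX1 (median -0.03), and 1 rose and 1 fell in NC (median 0.10). Of 8 methyl-CpG readers, 0 rose and 0 fell in edgeR (median -0.06), with 2 at an unadjusted p below 0.05, and the value farthest from 0 was MBD2 at 0.41 (adjusted p = 0.212). Against WT 1 reader rose in ESX1 (median -0.03) and 1 in NC (median -0.07), with 0 lower in each. Of 17 germline genes whose CpG island promoters carry methylation in somatic cells, only 5 had counts high enough to test. In edgeR 0 of the 5 were called against NC (median -0.05), and 2 had an unadjusted p below 0.05, with STK31 farthest from 0 at 1.57 (SE 0.734, edgeR adjusted p = 0.302) on 1 to 31 counts. Against WT 0 rose and 1 fell in ESX1 (median 0.16), and 0 rose and 0 fell in NC (median -0.13), where 0 had an unadjusted p below 0.05.

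**Figure D5:**
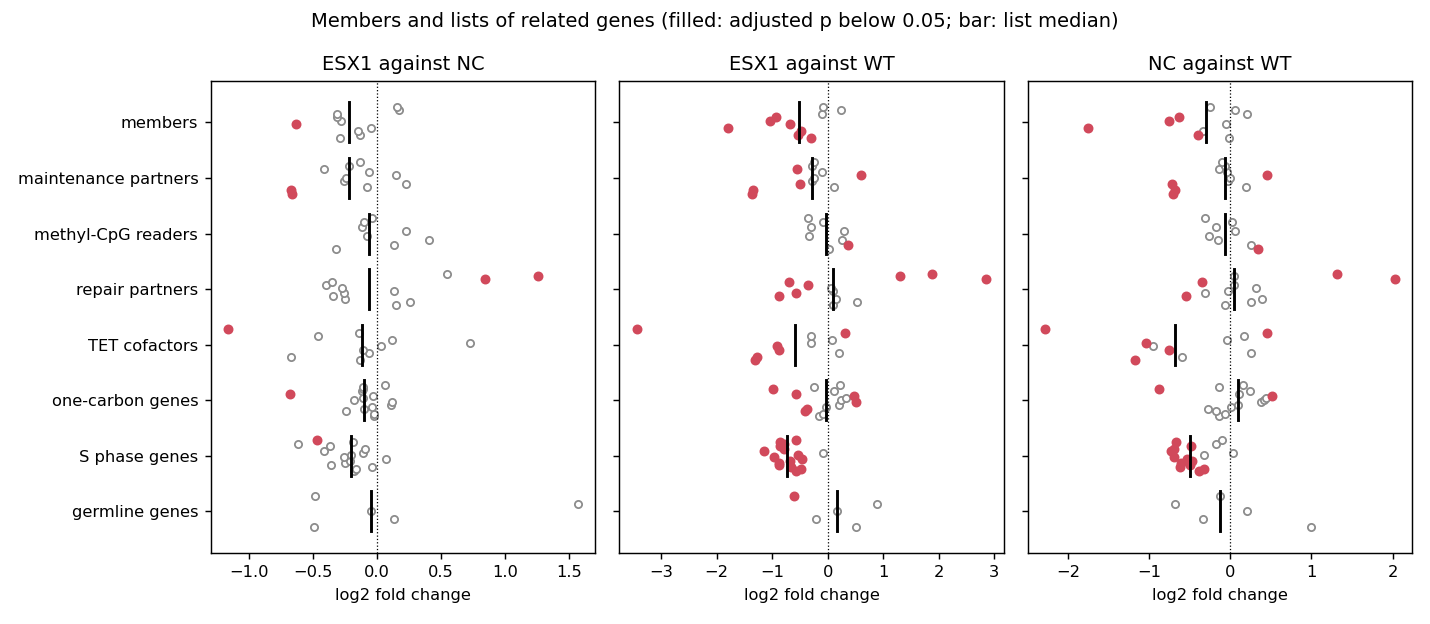
log2 fold changes of the members and of each list of related genes in the 3 comparisons, with a point per tested gene, filled where the edgeR adjusted p is below 0.05, and a bar at the list median. S phase genes lie left of 0 against WT, except CDT1 at 0.03 in NC against WT. Of these genes 15 of 16 and 12 of 16 are filled against WT, and 1 of 16 for ESX1 against NC.

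Likeness of pattern was measured as Pearson's r of log2 CPM over the 9 samples, which share their libraries and fall into 3 groups, so it mainly describes the order of the groups. The tested genes closest to UHRF1 were MED22 (0.981), SPTBN1 (0.975) and RYR1 (0.974), and those closest to DNMT1 were CDC20 (0.988), CTTN (0.977) and GPS1 (0.971). For TET1 they were GSTA4 (0.994), DLG3 (0.993) and CCND2 (0.993), and for UHRF2 UMODL1 (0.991), NLRP9 (0.989) and ARID5B (0.988). For DNMT3A they were DKK3 (0.966), FAM127A (0.96) and UBE4B (0.96), for DNMT3B NHP2 (0.995), YWHAE (0.985) and DSCC1 (0.985), and for DNMT3L MRPL43 (0.978), NLRP7 (0.978) and NDUFB1 (0.977). With a prior count of 0.5 in place of 2, the closest to DNMT3L was NOP56 (0.979), and NDUFB1 was no longer among the 3. Among the members, r was 0.96 for DNMT1 with UHRF1, 0.95 for TET1 with UHRF2 and -0.80 for DNMT3B with TET3.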

How the data were processed

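Read pairs of 9 samples were aligned by the authors to GRCh38 with HISAT2 2.0.5, per the methods and the submitters' processing notes. The deposited counts per gene were made by the authors with featureCounts, without the strand option although the library kit is stranded, and without pooling. The file header names featureCounts 1.5.2 and GENCODE 26, and the submitters' notes featureCounts 1.6.5. The deposited log2 values were normalized by the authors with DESeq2, whose transformation is not given in the sources used here. The 2 tables were joined row by row, and 0 columns were unused. The 23526 rows with 0 counts were also those with constant normalized values.

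Differences were tested on the counts with edgeR 4.0.16 (R 4.3.3). filterByExpr kept 18452 of 63856 genes, libraries were scaled with TMM, and the 3 groups were fitted over all 9 samples (glmQLFit, glmQLFTest, common dispersion 0.0277, Benjamini-Hochberg). Standard errors are the log2 fold change divided by the square root of F. CPM and RPKM use the TMM library sizes and the gene lengths of the count table. Total counts of 5212804 to 10644408 per sample limit precision most for DNMT3L. Alternatives used DESeq2 1.42.0, limma 3.58.1, other scalings and filters, thinning, a replicate block and leaving out each sample. The edgeR test was checked on simulated counts.

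The members and gene lists were chosen with earlier results of these data known. Named genes are the members, ESX1, the 3 genes most like each called member by Pearson's r (prior count 2), the called genes of each list in ESX1 against NC or, with none, that of largest absolute log2 fold change, and genes overlapping or copied from a member. MCM5, IDH1, OGT and the marker genes were chosen after their values were seen. The lists were maintenance partners, methyl-CpG readers, repair partners, TET cofactors, one-carbon genes, S phase genes and germline genes. No sample was left out of the main comparisons.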

Additional observations from a re-analysis of the deposited data

How the results depend on the processing

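Across 19 alternative analyses, 517 of 567 values of single genes kept their direction and their side of the threshold, 29 no longer passed, 3 newly passed and 18 changed sign, and the cause was not tested. The 517 include values that were not called in the main fit and stayed so. UHRF1 against NC lost its call in 5 of 19, each without 1 NC or ESX1 sample. In ESX1 against NC the member called was UHRF1 in every analysis of all samples, including DESeq2 and limma on the deposited log2 values, and the count was 0 with a 2-fold change or with an adjusted p below 0.01. Leaving out 1 sample gave 0 to 1. In ESX1 against WT the count of 7 became 2 with a 2-fold change and was 5 to 7 when 1 sample was left out. In NC against WT the count of 4 became 1 with a 2-fold change, 2 with at least 10 counts required in every sample, which leaves DNMT3L untested, and 2 to 6 when 1 sample was left out (2 without WT replicate 3, 6 without WT replicate 1). Signs changed only for values whose 95% interval included 0. With 1 sample left out at a time, DNMT3L in ESX1 against NC ran from -0.41 to 0.17, TET2 in ESX1 against WT from -0.32 to 0.17, and in NC against WT DNMT1 ran from -0.08 to 0.03, UHRF1 from -0.20 to 0.04, TET2 from -0.01 to 0.48 and TET3 from 0 to 0.12. Thinning every library to 5212804 counts gave 0.14 for DNMT3L in ESX1 against NC. Upper-quartile scaling gave 0.02 for TDG in ESX1 against WT, and 0.07 for DNMT1 and 0.04 for UHRF1 in NC against WT. DNMT1 in NC against WT was 0.02 with at least 10 counts in every sample and 0.01 in the 6 samples compared. Limma on the deposited log2 values gave DNMT3L smaller values, -0.86 in ESX1 against WT and -0.81 in NC against WT. The titles number the replicates alike in each group, but the sample descriptions number the ESX1 libraries 1, 3 and 5. The deviations of samples with the same title number correlated by only -0.03 to 0.193, not all over 0.1. The numbers were therefore not taken as pairs. With the replicate number as a block, 1, 7 and 4 members were called, the same genes, and the calls over all genes went from 784 to 1052, 5306 to 5744 and 3158 to 3720. The p-values measure the spread between the 3 samples of each group. In the main fit that spread is pooled over all 9 samples, so values for ESX1 against NC also carry the scatter of WT. The counts of DNMT3L limit what can be said of that gene.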
